A study of Mus musculus with 8 samples.

Results

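Nnt and 9 genes that work beside its product in mitochondria were followed in whole-liver RNA sequencing of 8 mice. The 10 genes were taken by symbol from the 16792 genes listed in the deposited tables, and all 10 were among the 13240 genes abundant enough to be tested. Nnt was chosen by its measured level, whose values separated the groups in these same data, so they are given as a description with no test. The 9 partners, Idh2, Me3, Glud1, Gsr, Txn2, Txnrd2, Prdx3, Prdx5 and Sod2, were chosen for their roles. The question was whether they differ where Nnt does.

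Livers came from 4 wild-type (WT) mice, numbered 164, 165, 166 and 167, and from 4 mice with a liver-specific knockout of E4bp4 (E4bp4-LKO), numbered 143, 144, 145 and 179. Mice of both groups were put on a diet that induces non-alcoholic steatohepatitis (NASH) at 2 months of age and stayed on it for 20 weeks. Regular chow is given as the housing diet. The promoter driving the recombinase, the strain, the sex and the relatedness of the groups were not stated in the sources used here. Genotype and genetic background therefore cannot be told apart in any result. Each library is a separate numbered mouse, and p-values set the difference between the groups against the spread between these mice.

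The product of Nnt, nicotinamide nucleotide transhydrogenase, sits in the inner mitochondrial membrane and uses the proton gradient to transfer hydride from NADH to NADP, making NADPH in the matrix. Isocitrate dehydrogenase (Idh2), malic enzyme (Me3) and glutamate dehydrogenase (Glud1) can make NADPH there as well. NADPH feeds glutathione reductase (Gsr) and thioredoxin reductase (Txnrd2). The latter keeps thioredoxin (Txn2) and, through it, the peroxiredoxins Prdx3 and Prdx5 able to remove the hydrogen peroxide that superoxide dismutase (Sod2) forms. Nnt is also known as a gene that varies among mouse substrains: C57BL/6J mice carry a deletion of several of its exons and lack the functional protein, while other C57BL/6 substrains have it.

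Levels are library-scaled counts (CPM) after TMM correction, and FPKM, which divides by transcript length, is used to compare genes with each other. Adjusted p is that of edgeR's quasi-likelihood test with Benjamini-Hochberg adjustment over all 13240 genes, with a threshold of 0.05. Log2 fold changes are E4bp4-LKO minus WT. Libraries held 23805540 to 32290265 counts. Nfil3, the gene encoding E4BP4, a repressor that binds D-box elements, ranged from 8.79 to 16.5 CPM in WT and from 3.33 to 6.23 CPM in E4bp4-LKO livers, without overlap. TMM factors were 1.16, 1.09, 1.00 and 0.984 in WT 164 to 167 and 0.941 to 0.963 in E4bp4-LKO livers. They did not overlap between the groups, and those of WT 164 and 165 stood furthest apart. In the whole tissue, fewer cells of a type and less RNA per cell cannot be told apart.

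Nnt (Entrez Gene 18115) was about as low in each WT liver as in the next, and high in every E4bp4-LKO liver. WT livers 164 to 167 measured 82.1, 89.8, 86.1 and 89.7 CPM, a mean of 86.9 ± 3.67 (SD, n = 4). E4bp4-LKO livers 143, 144, 145 and 179 measured 260, 292, 277 and 311 CPM, a mean of 285 ± 22.1 (SD, n = 4). The groups did not overlap: the lowest E4bp4-LKO liver was 2.89 times the highest WT liver, and the ratio of the means was 3.28. The spread within a group was small, with a coefficient of variation of 4.22% in WT and 7.74% in E4bp4-LKO. The log2 fold change was 1.71. It was 1.56 with library totals in place of TMM, and between 1.67 and 1.76 when each mouse in turn was left out.

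The deposited tables assign Nnt to 1 transcript, NM_008710, of 5355 bases, with whole counts in all 8 libraries. The RefSeq table for GRCm38.p6, an assembly of C57BL/6J, lists NM_001308506 for this gene instead. The tables give 1 value per gene and none per exon, so the exons affected by the C57BL/6J deletion were not examined here.

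**Figure D1:**
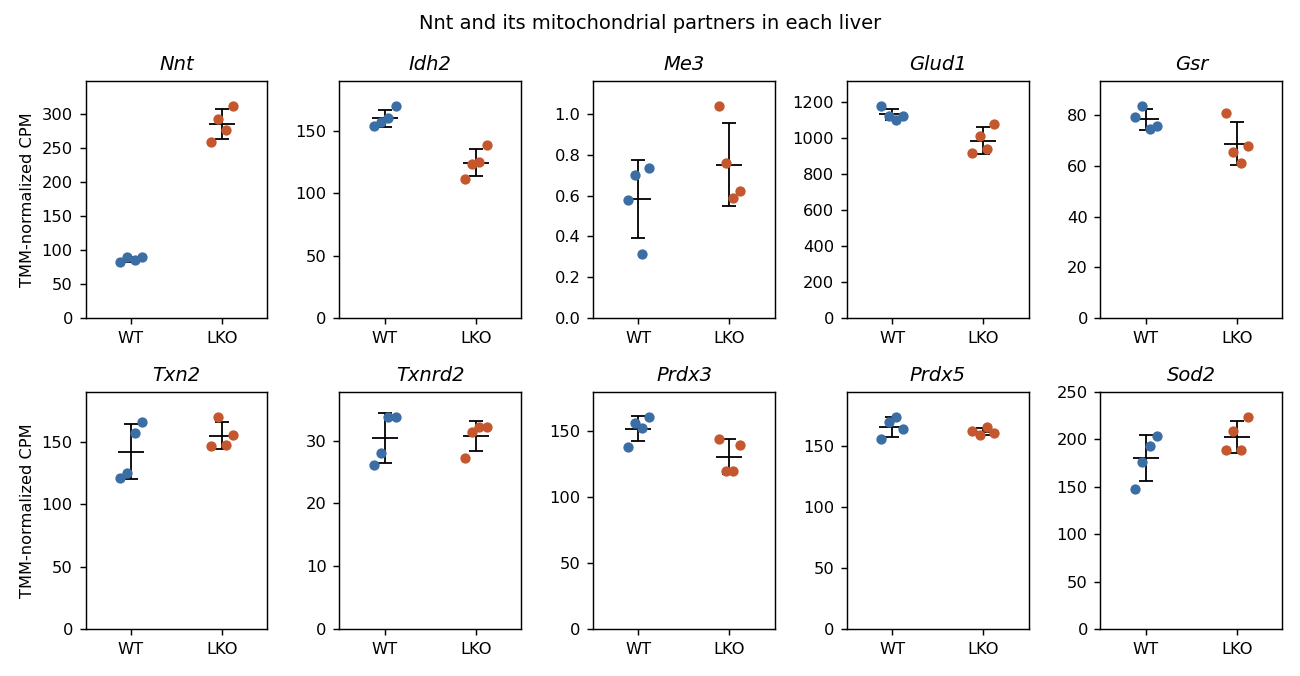
TMM-normalized CPM (vertical axes, each from 0) of Nnt and its 9 partners in 4 WT (blue) and 4 E4bp4-LKO (red) livers; points are single livers, the wide tick is the group mean and the bars are SD. The Nnt points lie at 82.1 to 89.8 in WT livers and at 260 to 311 in E4bp4-LKO livers, while Idh2 and Glud1 are the partners whose groups do not overlap.

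Compared per length, Nnt changed its place among the 10 genes. In FPKM, WT livers 164 to 167 gave 17.5, 18.0, 15.9 and 16.3 for Nnt, and E4bp4-LKO livers 143, 144, 145 and 179 gave 46.1, 50.7, 48.2 and 54.0. In WT the order of mean FPKM ran from Glud1 (376 ± 38.4) through Prdx5 (264 ± 14.9), Txn2 (117 ± 10.2), Prdx3 (112 ± 4.95), Idh2 (98.6 ± 4.45), Sod2 (49.0 ± 3.26) and Gsr (30.6 ± 3.56) to Nnt (16.9 ± 0.993), Txnrd2 (16.6 ± 0.952) and Me3 (0.140 ± 0.0408; SD, n = 4 each). In that order the ranges of Txn2 and Prdx3 overlapped, as did those of Nnt and Txnrd2, and the other adjoining pairs did not overlap. In E4bp4-LKO the order was Glud1 (293 ± 19.6), Prdx5 (231 ± 5.49), Txn2 (115 ± 7.20), Prdx3 (86.2 ± 9.24), Idh2 (68.8 ± 5.59), Nnt (49.7 ± 3.40), Sod2 (49.6 ± 3.83), Gsr (24.1 ± 3.26), Txnrd2 (15.1 ± 1.01) and Me3 (0.163 ± 0.0403). There the range of Nnt overlapped that of Sod2 and lay above those of Gsr and Txnrd2.

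**Figure D2:**
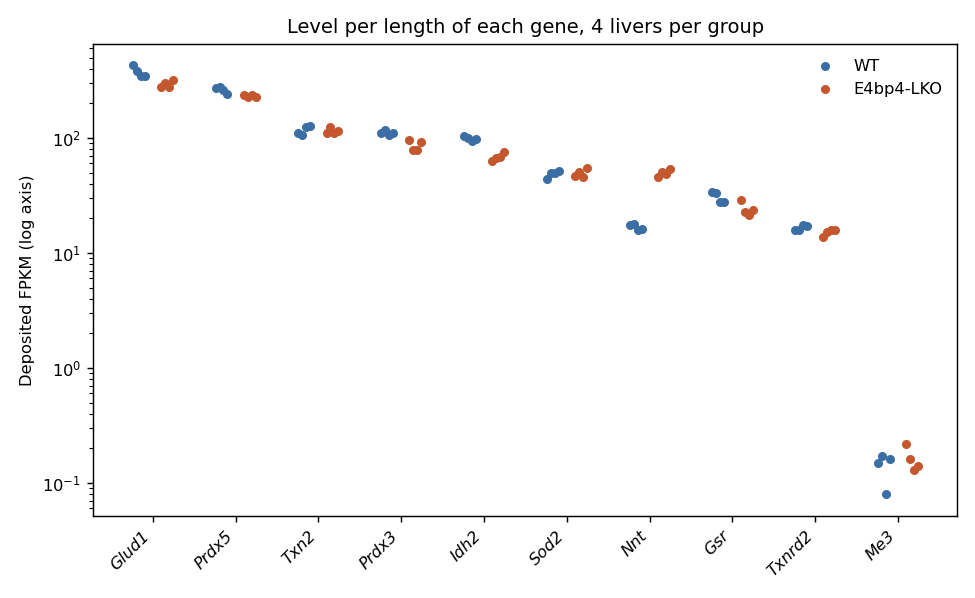
Deposited FPKM (log axis) of the 10 genes, ordered by mean level, with 4 WT livers in blue and 4 E4bp4-LKO livers in red. Nnt lies beside Txnrd2 in WT livers (15.9 to 18.0) and beside Sod2 in E4bp4-LKO livers (46.1 to 54.0), and Me3 is far below the rest.

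Among the NADPH-forming partners, Idh2 fell. This enzyme (Entrez Gene 269951) oxidises isocitrate with NADP and is an abundant mitochondrial NADPH source in liver. WT livers 164 to 167 measured 154, 157, 160 and 170 CPM, and E4bp4-LKO livers 143, 144, 145 and 179 measured 112, 123, 125 and 139 CPM. All 4 E4bp4-LKO livers were below all 4 WT livers. The means were 160 ± 6.73 and 125 ± 11.1 CPM (SD, n = 4 each), a log2 fold change of -0.36 (SE 0.08, adjusted p = 0.0196). The call was lost when WT 165 (adjusted p = 0.0526), E4bp4-LKO 144 (0.0633) or E4bp4-LKO 145 (0.0512) was left out, with log2 fold changes between -0.37 and -0.35. It held without WT 164 and 165 together (log2 fold change -0.40, adjusted p = 0.0473).

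Glud1, which oxidises glutamate to 2-oxoglutarate with NAD or NADP, had separated values but did not pass the test. WT livers 164 to 167 measured 1174, 1124, 1102 and 1122 CPM, and E4bp4-LKO livers 143, 144, 145 and 179 measured 914, 1010, 937 and 1077 CPM. The highest E4bp4-LKO liver lay just under the lowest WT liver. The means were 1130 ± 30.9 and 984 ± 73.7 CPM (SD, n = 4 each), and the log2 fold change was estimated at -0.20 (SE 0.09, adjusted p = 0.188). DESeq2 placed it just past the threshold with a like estimate (log2 fold change -0.19, adjusted p = 0.0484).

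Me3, the mitochondrial NADP-dependent malic enzyme, was close to the limit of counting. Its CPM was 0.578, 0.702, 0.316 and 0.735 in WT 164 to 167, and 1.04, 0.758, 0.588 and 0.625 in E4bp4-LKO 143, 144, 145 and 179. These are 9.45 to 27.8 counts per library, fractional in all 8, and the groups overlapped (log2 fold change 0.37, SE 0.32, adjusted p = 0.507). No difference in Me3 passed the test, and at these counts its SE was the widest of the 9 partners.

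Set against each other within a library, where no scaling factor enters, Nnt and Idh2 moved apart. The FPKM ratio of Nnt to Idh2 was 0.168, 0.181, 0.170 and 0.167 in WT 164 to 167, and 0.734, 0.751, 0.700 and 0.708 in E4bp4-LKO 143, 144, 145 and 179. Nnt took 14.3% to 15.3% of the summed FPKM of Nnt, Idh2 and Me3 in WT livers and 41.1% to 42.8% in E4bp4-LKO livers. The sum itself overlapped between the groups, at 110 to 122 FPKM in WT and 109 to 130 FPKM in E4bp4-LKO. Unlike the ratios and percentages, this sum depends on library scaling, and the FPKM carry no TMM correction. Because Nnt was chosen for its difference, these ratios are a description. Idh2 could also be set beside enzymes of the same reaction, the NAD-dependent Idh3a of the tricarboxylic acid cycle and the cytosolic Idh1. The FPKM ratio of Idh2 to Idh3a was 5.55 to 7.06 in WT livers and 3.68 to 5.08 in E4bp4-LKO livers. The ratio of Idh2 to Idh1 was 0.597 to 0.643 in WT livers and 0.364 to 0.483 in E4bp4-LKO livers. Neither ratio overlapped between the groups. The estimates of Idh3a (log2 fold change 0.16, adjusted p = 0.300) and Idh1 (0.17, adjusted p = 0.250) were above 0 and did not pass. They add to the difference in the ratios, which therefore do not measure Idh2 alone. How many of all genes would separate on such ratios was not measured.

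Gsr regenerates reduced glutathione from its oxidised form with NADPH. WT livers 164 to 167 measured 79.4, 83.4, 74.5 and 75.9 CPM, and E4bp4-LKO livers 143, 144, 145 and 179 measured 80.9, 65.4, 61.0 and 67.8 CPM. Liver 143 lay within the WT range, and the other 3 E4bp4-LKO livers lay below it. The test was not passed (log2 fold change -0.19, SE 0.09, adjusted p = 0.198). Without liver 143 it was (log2 fold change -0.27, adjusted p = 0.0472).

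In the thioredoxin arm, neither the reductase nor its substrate passed the test. Txnrd2 measured 26.2, 28.0, 33.8 and 33.8 CPM in WT 164 to 167, and 27.3, 31.4, 32.1 and 32.2 CPM in E4bp4-LKO 143, 144, 145 and 179. Its log2 fold change came to 0.02 (SE 0.10, adjusted p = 0.934), and its sign changed under several settings, among them library totals (-0.13). Txn2, mitochondrial thioredoxin, measured 121, 125, 157 and 165 CPM in WT and 146, 170, 148 and 156 CPM in E4bp4-LKO, in the same order of mice. The estimate was 0.12 on the log2 scale (SE 0.11, adjusted p = 0.507) and turned to -0.02 with library totals. In both genes WT 164 and 165 were the 2 lowest WT livers.

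Of the peroxiredoxins, Prdx3 is the thioredoxin-dependent peroxidase of the mitochondrial matrix, and Prdx5 is found in mitochondria, peroxisomes and cytosol. Prdx3 measured 138, 156, 153 and 161 CPM in WT 164 to 167, and 144, 120, 120 and 140 CPM in E4bp4-LKO 143, 144, 145 and 179. Livers 144 and 145 lay below every WT liver, and livers 143 and 179 lay within the WT range (log2 fold change -0.22, SE 0.09, adjusted p = 0.131). Prdx5 measured 156, 170, 174 and 164 CPM in WT and 163, 160, 166 and 161 CPM in E4bp4-LKO. All 4 of its E4bp4-LKO values lay within the WT range (log2 fold change -0.03, SE 0.07, adjusted p = 0.795).

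Sod2, the manganese superoxide dismutase of the matrix, measured 148, 177, 193 and 204 CPM in WT 164 to 167, and 188, 209, 188 and 223 CPM in E4bp4-LKO 143, 144, 145 and 179. The groups overlapped, with WT 164 lowest of the 8 (log2 fold change 0.17, SE 0.11, adjusted p = 0.346). Counts of Sod2 and Txnrd2, like those of Me3, were fractional in all 8 libraries, though the deposited tables assign each gene a single transcript. Some reads were thus given to them only in part, and where the rest went was not examined.

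Over the 9 partners, 0 rose, 1 fell and 8 did not pass, a share of 1 in 9 where 10.9% of all tested genes passed (4.38% higher, 6.49% lower). At an unadjusted p under 0.05, Prdx3 joined Idh2 among the lower genes and none of the 9 was higher, where 13.1% of all tested genes were higher and 15.2% lower. By DESeq2 the counts were 0 higher and 2 lower, where 6.86% of genes with an adjusted p were higher and 8.9% lower. The groups did not overlap for 2 of the 9, both lower. Over all tested genes 18.5% did not overlap, 8.8% higher and 9.68% lower. The median log2 fold change of the partners was -0.03, and that of all tested genes was 0.01.

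The number of partners that passed moved with the scaling. When library totals replaced TMM, the median of all tested genes moved from 0.01 to -0.15, and the lower share of called genes from 59.7% to 85.1%. Under that scaling 3 partners were called lower: Idh2 (log2 fold change -0.52, adjusted p = 0.00335), Glud1 (-0.36, adjusted p = 0.0262) and Prdx3 (-0.37, adjusted p = 0.0180). Of all tested genes 12.6% were called lower and 2.2% higher under it. The same 3 genes passed in limma on log2(FPKM + 1), where the median of all genes was -0.11 and 84.5% of called genes were lower. There 13.2% of all genes were called lower and 2.42% higher. On the deposited FPKM the groups did not overlap for Idh2, Glud1, Prdx3 and Prdx5, all lower, where 18.4% of tested genes were lower without overlap and 2.92% were higher. The TMM factors went with this difference between scalings, each WT liver having a higher factor than each E4bp4-LKO liver. The part of these factors, and of WT 164 and 165, was not tested.

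**Figure D3:**
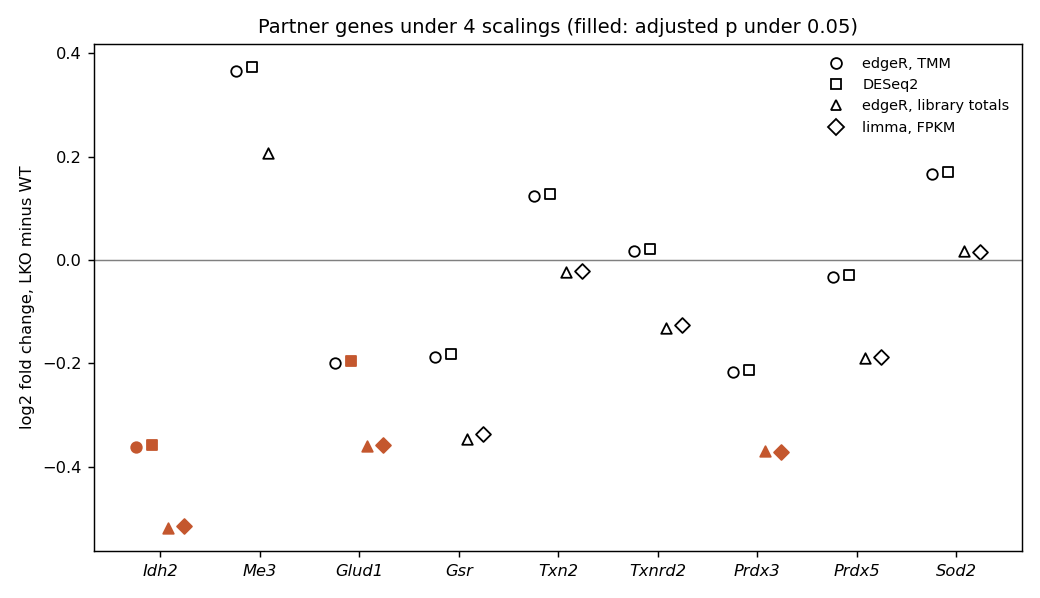
Log2 fold change (vertical axis, E4bp4-LKO minus WT) of the 9 partners by edgeR with TMM (circles), DESeq2 (squares), edgeR with library totals (triangles) and limma on log2(FPKM + 1) (diamonds); filled symbols have an adjusted p under 0.05, and Me3 was too low for limma. Idh2 is filled in all 4, from -0.36 to -0.52, and Txn2 and Txnrd2 lie on either side of 0.

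A comparison that needs no library scaling is the level of each gene relative to other mitochondrial transcripts of the same liver. The yardstick was the summed CPM of 15 genes for mitochondrial channels, import proteins, chaperones and respiratory subunits, which ran from 1849 to 2257 CPM in WT livers and from 2165 to 2376 CPM in E4bp4-LKO livers. None of the 15 passed by edgeR or DESeq2, 0 had an unadjusted p under 0.05, and their median log2 fold change was 0.09. Relative to that sum Idh2 stood at 7.18% to 8.34% in WT livers and at 5.00% to 5.85% in E4bp4-LKO. Glud1 stood at 49.4% to 63.5% in WT livers and at 40.9% to 46.6% in E4bp4-LKO. Prdx3 stood at 6.83% to 7.54% in WT livers and at 5.51% to 6.45% in E4bp4-LKO. These 3 partners were lower without overlap on this measure, and the other 6 overlapped. The sum itself leaned higher in E4bp4-LKO livers, with 12 of the 15 estimates above 0, which lowers every percentage there. The percentages therefore do not measure the partners alone, and in CPM the groups overlapped for Prdx3. Of all tested genes 11.7% were lower and 4.27% higher without overlap on the same measure, which was set after the values were seen. Nnt stood at 3.86% to 4.44% in WT livers and at 11.6% to 13.5% in E4bp4-LKO.

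Promoters of these 3 partners, the ones called lower under library totals, are shown as examples and were picked after their values were seen. Each sequence is the 250 bases before the gene's start in RefSeq, assembly GRCm38.p6, written in the direction of transcription. Capitals mark the GC box GGGCGG, a site for Sp factors, and the CCAAT box CCAAT, a site for NF-Y, on either strand.
Idh2, chr7:80115351-80115600, minus strand: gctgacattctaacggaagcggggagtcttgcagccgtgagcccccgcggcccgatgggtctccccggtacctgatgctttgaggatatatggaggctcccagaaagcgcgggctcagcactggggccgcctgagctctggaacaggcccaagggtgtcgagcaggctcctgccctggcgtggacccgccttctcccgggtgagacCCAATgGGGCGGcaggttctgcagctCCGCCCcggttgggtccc
Glud1, chr14:34310477-34310726, plus strand: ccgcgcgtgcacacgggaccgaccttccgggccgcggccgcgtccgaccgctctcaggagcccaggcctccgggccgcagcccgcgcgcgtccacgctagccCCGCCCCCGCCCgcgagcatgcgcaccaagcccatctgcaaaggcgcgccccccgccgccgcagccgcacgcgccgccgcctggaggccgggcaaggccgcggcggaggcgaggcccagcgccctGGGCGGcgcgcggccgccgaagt
Prdx3, chr19:60874539-60874788, minus strand: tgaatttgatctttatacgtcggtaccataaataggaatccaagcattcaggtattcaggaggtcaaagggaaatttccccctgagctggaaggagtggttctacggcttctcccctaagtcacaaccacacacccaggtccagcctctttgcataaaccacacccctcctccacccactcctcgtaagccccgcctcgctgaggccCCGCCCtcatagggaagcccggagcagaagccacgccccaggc
In Idh2 a CCAAT box stands 1 base before a GC box. Glud1 holds a pair of adjoining GC boxes on the minus strand and another on the plus strand, and Prdx3 holds a single GC box. None of the marked boxes overlap. A D-box, searched as TTANGTAA on both strands, was in none of the 3, nor in the other 5 partners with an entry (Me3, Txn2, Txnrd2, Prdx5 and Sod2), against 2.06% of the 32851 promoters of the table. The antioxidant response element, searched as TGACNNNGC on both strands, was likewise in none of the 8, against 10.2% of promoters. At shares this low, few or none of 8 windows would hold either element, so no conclusion is drawn from their absence. The GC box was in 7 of the 8, Me3 being the exception, against 32.7% of promoters. The CCAAT box was in Idh2, Txn2 and Sod2, against 33.8%. The GC content of the Idh2, Glud1 and Prdx3 windows was 67.2%, 82% and 55.6%, with a median of 52.4% over all promoters. The other 5 windows ran from 57.6% to 65.6%, so all 8 lay above that median. The promoters used for reference were not matched for GC content or expression, so the GC box share is not a like comparison. Nnt and Gsr have no entry in the table.

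Other genes of mitochondrial NADPH supply were measured by 7 further members, of which 0 rose and 1 fell by edgeR (1 and 1 at an unadjusted p under 0.05, 0 and 1 by DESeq2; median log2 fold change -0.43). Mthfd2, a mitochondrial folate dehydrogenase, was low, at 2.07 ± 0.460 CPM in WT and 1.05 ± 0.277 CPM in E4bp4-LKO (SD, n = 4 each; log2 fold change -0.98, SE 0.25, adjusted p = 0.0353). This call was lost in 5 of the 8 fits that left out a mouse: WT 164 (adjusted p = 0.0678), WT 165 (0.102) and E4bp4-LKO 144 (0.0954), 145 (0.0848) and 179 (0.0750). Nadk2, the kinase that makes mitochondrial NADP from NAD, measured 144, 173, 182 and 180 CPM in WT and 198, 203, 185 and 225 CPM in E4bp4-LKO. Its groups did not overlap, and the threshold was missed (log2 fold change 0.26, SE 0.10, adjusted p = 0.107). For this list and those that follow, shares over all tested genes are the reference. By edgeR 4.38% were higher and 6.49% lower, and by DESeq2 6.86% and 8.9%. At an unadjusted p under 0.05, 13.1% were higher and 15.2% lower. Without overlap between the groups, 8.8% were higher and 9.68% lower. Whether any list differs from these shares was not tested.

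Of 9 cytosolic NADPH sources, 0 rose and 1 fell by edgeR (1 and 1 at an unadjusted p under 0.05, 1 and 1 by DESeq2; median log2 fold change 0.03). Pgd, of the pentose phosphate pathway, went from 92.6 ± 10.9 to 64.6 ± 14.5 CPM (SD, n = 4 each; log2 fold change -0.52, SE 0.15, adjusted p = 0.0460). Its groups overlapped, and the call was lost in 7 of the 8 fits that left out a mouse, all but that without E4bp4-LKO 143, with adjusted p from 0.0546 to 0.122. The folate enzyme Aldh1l1 showed a log2 fold change of 0.45 (adjusted p = 0.0830).

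The other peroxide and thiol repair genes of mitochondria were 10, of which 0 rose and 1 fell by edgeR (1 and 1 at an unadjusted p under 0.05, 1 and 1 by DESeq2; median log2 fold change 0.05). Gpx4, which reduces lipid hydroperoxides with glutathione, measured 485, 552, 578 and 555 CPM in WT 164 to 167, and 405, 351, 334 and 406 CPM in E4bp4-LKO 143, 144, 145 and 179. Every E4bp4-LKO liver was below every WT liver, and the log2 fold change came to -0.54 (SE 0.10, adjusted p = 0.0103). The call held in all 8 fits that left out a mouse. The value is per gene, so transcripts for mitochondrial and other forms of Gpx4 were not told apart. Gpx1, the glutathione peroxidase of cytosol and mitochondria, showed a log2 fold change of 0.35 (adjusted p = 0.0730), which passed without E4bp4-LKO 143 (0.42, adjusted p = 0.0446).

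Of 14 antioxidant counterparts in the cytosol and elsewhere, 0 rose and 1 fell by edgeR (3 and 4 at an unadjusted p under 0.05, 2 and 4 by DESeq2; median log2 fold change -0.10). Gss, glutathione synthetase, went from 109 ± 5.65 to 83.2 ± 5.70 CPM (SD, n = 4 each; log2 fold change -0.39, SE 0.07, adjusted p = 0.0108), without overlap. It held in all 8 fits that left out a mouse, and did not pass without WT 164 and 165 together (log2 fold change -0.32, adjusted p = 0.0735). Srxn1, which repairs over-oxidised peroxiredoxins, showed a log2 fold change of -0.49 (adjusted p = 0.0503), passing without WT 167 (adjusted p = 0.0335) and without E4bp4-LKO 143 (0.00666). Txnip, a thioredoxin-binding protein, showed a log2 fold change of -0.42 (adjusted p = 0.0557), without overlap between the groups. Cat (log2 fold change 0.33, adjusted p = 0.107) and Prdx6 (0.31, adjusted p = 0.110) went the other way without overlap and did not pass. Of the 14, 2 were higher and 3 lower without overlap. The list summed to 5670 to 7030 CPM in WT livers and 7151 to 7666 CPM in E4bp4-LKO.

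Among 8 users of mitochondrial NADPH, 1 rose and 0 fell by edgeR (2 and 1 at an unadjusted p under 0.05, 1 and 0 by DESeq2; median log2 fold change 0.02). Cyp27a1, the mitochondrial sterol 27-hydroxylase of bile acid synthesis, measured 270, 283, 375 and 391 CPM in WT 164 to 167, and 452, 522, 496 and 459 CPM in E4bp4-LKO 143, 144, 145 and 179. The groups did not overlap, and WT 164 and 165 were the lowest. The log2 fold change came to 0.55 (SE 0.13, adjusted p = 0.0254). The call was lost without WT 165 (adjusted p = 0.0797), E4bp4-LKO 144 (0.0788), 145 (0.0635) or 179 (0.0522). Without WT 164 and 165 together the estimate was 0.34 (adjusted p = 0.0779). Fdx1, a ferredoxin that passes electrons to such enzymes, showed a log2 fold change of 0.33 (adjusted p = 0.110).

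None of the 15 genes of the tricarboxylic acid cycle and glutamate metabolism passed by edgeR (median log2 fold change 0.10). At an unadjusted p under 0.05, Glul (log2 fold change 0.47, adjusted p = 0.107), Sdhb (0.28, adjusted p = 0.114) and Gls2 (0.34, adjusted p = 0.134) were higher. Glul makes glutamine and Gls2 breaks it down. By DESeq2, Glul was the 1 of the 15 that passed (adjusted p = 0.0376).

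**Figure D4:**
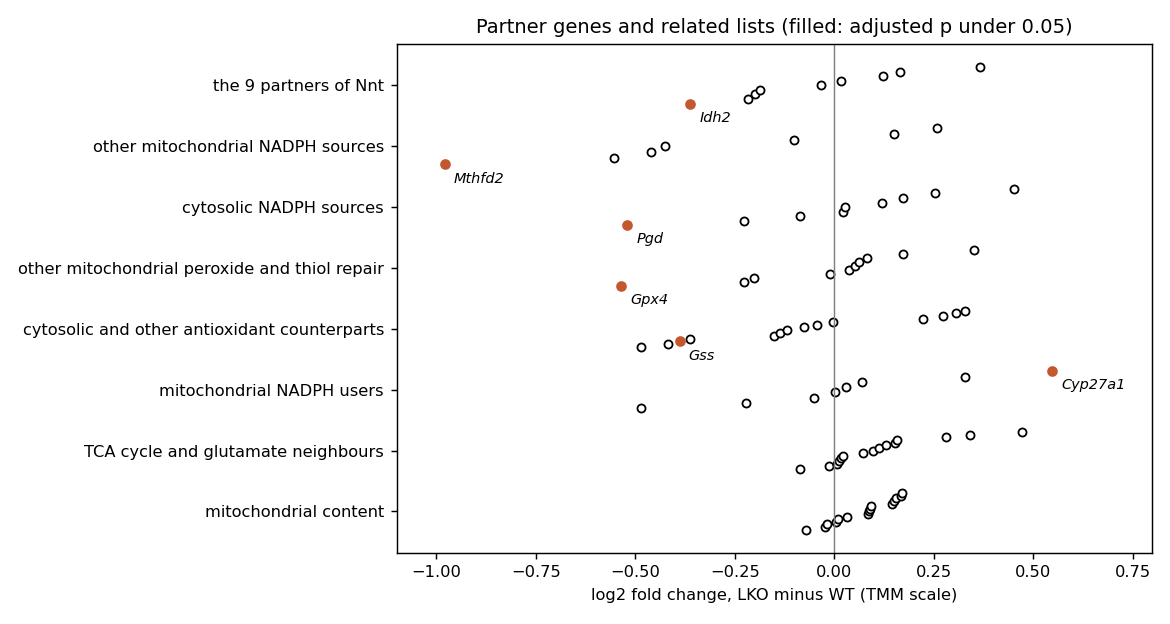
Log2 fold change (horizontal axis, E4bp4-LKO minus WT, TMM scale) of each gene, 1 point a gene, for the 9 partners of Nnt and 7 related lists; filled red points have an adjusted p under 0.05 and are named. A single gene is filled in each of the upper 6 lists, with Cyp27a1 (0.55) the filled point right of 0, and none is filled in the TCA cycle or mitochondrial content lists.

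Other genes reported to vary between mouse substrains were looked at beside Nnt. None of the 3 passed by edgeR, and 2 were called higher by DESeq2, which called 6.86% of all genes higher. Entpd4, a nucleotide phosphohydrolase, measured 48.7, 52.0, 52.8 and 56.5 CPM in WT 164 to 167, and 51.2, 68.7, 85.6 and 96.4 CPM in E4bp4-LKO 143, 144, 145 and 179. Liver 143 lay in the WT range and the other 3 above it (log2 fold change 0.52, SE 0.16, adjusted p = 0.0696). Without liver 143 the test was passed (0.67, adjusted p = 0.00792), and DESeq2 called it on all 8 (adjusted p = 0.0180). Ide, insulin-degrading enzyme, measured 109, 119, 119 and 120 CPM in WT and 135, 136, 126 and 139 CPM in E4bp4-LKO. Its groups did not overlap (log2 fold change 0.20, SE 0.07, adjusted p = 0.0836), and DESeq2 called it as higher (adjusted p = 0.0237). Wdfy1 overlapped, its log2 fold change being -0.03 (adjusted p = 0.816). By an unadjusted p under 0.05, Entpd4 and Ide were higher. The part of genetic background in the Nnt values was not tested.

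The genes lying beside Nnt were described by their order on the chromosome, taken from the RefSeq table. Within 20 tested genes before Nnt and the 8 after it, 0 of 28 rose and 2 fell, or 7.14% called against 10.9% over all genes, with a median log2 fold change of 0.04. At an unadjusted p under 0.05, 3 were higher and 5 lower, against 13.1% and 15.2% of all genes. By DESeq2 1 was higher and 5 lower, against 6.86% and 8.9%. The nearest on each side, Mrps30, of the mitochondrial ribosome, and Paip1, of translation initiation, had log2 fold changes of 0.10 and -0.05, and neither passed. Beyond Mrps30, Emb (log2 fold change -0.99, adjusted p = 0.0667) and Parp8 (-0.87, adjusted p = 0.0916) were estimated lower, overlapped and did not pass. Beyond Paip1, 4833420G17Rik (0.09) and Tmem267 (-0.08) did not pass. The pair that fell were Gpx8, a peroxidase of the endoplasmic reticulum (log2 fold change -0.98, adjusted p = 0.0414), and Esm1, an endothelial proteoglycan (-1.06, adjusted p = 0.0283). Both were at low level, with highest livers at 3.21 and 7.92 CPM. Both calls were lost without WT 164, WT 165, E4bp4-LKO 144 or E4bp4-LKO 179, that of Gpx8 also without E4bp4-LKO 143 and that of Esm1 without E4bp4-LKO 145, with adjusted p from 0.0591 to 0.114.

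**Figure D5:**
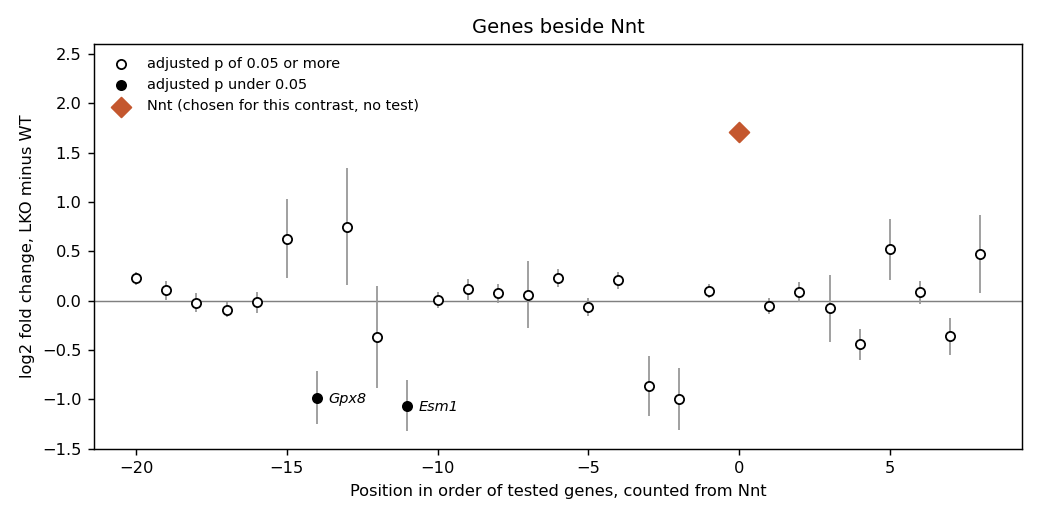
Log2 fold change (vertical axis, E4bp4-LKO minus WT; bars are SE) of the tested genes before (left) and after (right) Nnt, by position in gene order; filled points have an adjusted p under 0.05. Nnt, drawn as a diamond without a test, lies at 1.71, its immediate neighbours lie at 0.10 and -0.05, and Gpx8 and Esm1 are the filled points.

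Nnt and Nfil3 lie on the same chromosome. Beside Nfil3, 40 tested genes held 2 that rose and 2 that fell, or 10% called. The 289 tested genes between Nnt and Nfil3 held 4 that rose and 17 that fell, or 7.27% called. Over the chromosome without Nnt and Nfil3, 10.1% of 486 genes were called, and over the other chromosomes 10.9%.

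The genes most like Nnt in pattern were found by the root mean square difference of log2 CPM, after centring each gene, over the 8 libraries among 10606 genes. They were Ppp1r1b, a phosphatase inhibitor (0.0948), Cyp3a11, a drug-metabolising cytochrome P450 (0.142), C8b, a complement component (0.177), Hectd2, a ubiquitin ligase (0.224), and Abca8a, a lipid transporter (0.278). Their log2 fold changes were 1.63, 1.57, 1.55, 1.72 and 1.26. Ppp1r1b measured 5.72, 6.81, 7.40 and 6.93 CPM in WT and 19.3, 20.2, 21.2 and 22.5 CPM in E4bp4-LKO. Cyp3a11 measured 3335, 3576, 3006 and 2838 CPM in WT and 9338, 9226, 8474 and 10944 CPM in E4bp4-LKO. The 8 partners at 1 FPKM or more lay at distances of 0.776 (Sod2) to 1.04 (Idh2). A gene without any difference between libraries would lie at 0.859, a distance that the fold of Nnt itself sets.

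Some markers of hepatocytes, macrophages and stellate cells also passed by edgeR, and none of the other cell lists did. The hepatocyte list summed to 56827 to 74979 CPM in WT livers and 72020 to 88802 CPM in E4bp4-LKO, with 1 of 8 markers higher by edgeR (Serpina1a, log2 fold change 0.55, adjusted p = 0.0283) and 2 higher and 1 lower by DESeq2. Tat went the other way without overlap (log2 fold change -0.35, adjusted p = 0.0918). Macrophage markers summed to 523 to 750 CPM in WT livers and 404 to 555 CPM in E4bp4-LKO, with 3 of 8 lower by edgeR (C1qa, Cd14 and Cd68) and 4 by DESeq2, where 6.49% and 8.9% of all genes were lower. Clec4f (log2 fold change -0.03) and Adgre1 (-0.14) overlapped, as did Marco, whose estimate was higher (1.76, adjusted p = 0.173). Stellate cell and myofibroblast markers summed to 728 to 1331 CPM in WT livers and 466 to 640 CPM in E4bp4-LKO. By edgeR 3 of 8 were lower (Col3a1, Dcn and Lrat) and by DESeq2 5, against the same 6.49% and 8.9% of all genes. Acta2 (log2 fold change 0.004) and Reln (0.07) overlapped with estimates above 0, and the other 6 estimates were below 0. Most of the sum came from the matrix transcripts Col1a1, Col3a1 and Dcn, so it does not show fewer such cells. Endothelial markers summed to 195 to 233 CPM in WT livers and 196 to 294 CPM in E4bp4-LKO, with 0 of 6 called by edgeR and 1, higher, by DESeq2. Cholangiocyte markers summed to 12.7 to 34.5 CPM in WT livers and 8.17 to 12.8 CPM in E4bp4-LKO, with 0 of 5 called by edgeR, all 5 lower at an unadjusted p under 0.05 and 2 lower by DESeq2. T and NK cell, B cell and neutrophil markers summed to between 3.05 and 18.4 CPM in any liver, with 0 called by edgeR or DESeq2 and 2 of 12 at an unadjusted p under 0.05, and none of the lists summed to 0. WT 164 had the lowest hepatocyte sum and the highest macrophage, stellate cell and cholangiocyte sums. The part of cell makeup in the values of Nnt, Idh2 and the other partners was not tested.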

How the data were processed

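Values came from 8 deposited tables, 1 per liver. The authors' expected counts are unnormalized estimates per gene, and 25.9% to 27.3% of entries in a library are fractional. The FPKM column was deposited by the authors as counts per transcript length and library size. The submitters' processing notes name HISAT2. For the build, annotation and counting program, nothing was given in the sources used here. Deposited transcript lengths were used for description only. Counts were joined per gene (26 unnamed isoform entries were placed by RefSeq accession, 4 stayed unnamed), missing genes were set to 0, and counts were rounded. In R 4.3.3, edgeR 4.0.16 kept genes by filterByExpr (minimum count 10, total 15), scaled by TMM and tested E4bp4-LKO against WT (glmQLFit with robust dispersion, two-sided, threshold 0.05), fitted on all genes. The test was tried on simulated data. The alternatives were DESeq2 1.42.0, its size factors in edgeR, library totals, no filter, 5 CPM in 4 libraries, limma 3.58.1 on log2(FPKM + 1) or log2(FPKM + 0.1) for genes at 1 FPKM in 4 libraries, a threshold of 0.1, each mouse left out, and WT 164 and 165 left out together.

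The 10 genes and all lists were chosen with earlier results of these data known. Named were all 10 genes, up to 3 of each list with the smallest p, the 5 genes most like Nnt in pattern (mean FPKM of at least 1, no predicted models), called neighbours of Nnt, and Nfil3. Idh1, Idh3a, Cat, Prdx6, the 3 nearest neighbours of Nnt on each side and the cell markers were added as reference points. Percentages of mitochondrial transcripts and the choice of promoters and cell markers to name were set after the values were seen. Counts of 3 stand for 0.0929 to 0.126 CPM, by counting error only.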

Additional observations from a re-analysis of the deposited data

Results flagged for a closer look

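Txnrd2 in E4bp4-LKO liver 143, at 27.3 CPM, lay apart from the other 3 livers of its group, which measured 31.4 to 32.2 CPM. The gap to the nearest of them took a share of 0.8297 of the group's range, just past the limit of Dixon's test for 4 samples. Of 20 groups tested (10 genes in each genotype), this was the only 1 so marked, and chance marks about 1 in 20.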

How the results depend on the processing

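Nnt stayed higher in every setting run, with log2 fold changes of 1.5 to 1.76. Because it was chosen for its separation in these same livers, this is a description only. Idh2 stayed lower in all, and 14 of 17 alternatives kept its call, among them the threshold of 0.1, which could not lose it. Of the 8 fits that left out a mouse, 5 kept it. Called genes numbered 1439, and 2233 by DESeq2, 506 to 1540 with a mouse left out, 387 without WT 164 and 165 and 2488 at a threshold of 0.1. Lower partners numbered 1, and 2 by DESeq2, 3 with library totals, 3 in both limma fits and 0 to 2 with a mouse left out. Genes of the 7 other lists numbered 1 higher and 4 lower. Higher ones were 6 by DESeq2, 0 to 2 with a mouse left out, 0 without WT 164 and 165 and 4 at 0.1. Lower ones were 7 by DESeq2, 11 with library totals and in both limma fits, 2 to 6 with a mouse left out, 2 without WT 164 and 165 and 7 at 0.1. Of the neighbours of Nnt, 0 were higher (1 by DESeq2, 1 at 0.1) and 2 lower (5 by DESeq2, 0 with the 5 CPM filter, 0 to 4 with a mouse left out, 0 without WT 164 and 165, 4 at 0.1). Txn2 turned from 0.12 to -0.023 with library totals, -0.022 in both limma fits and -0.052 without WT 164 and 165. Txnrd2 turned from 0.02 to -0.13 with library totals, in both limma fits and without WT 164 and 165, and to -0.0067 with the 5 CPM filter. With a mouse left out it ran from -0.047 to 0.076. Timm23 turned from 0.15 to -0.0072 with library totals, and to -0.0080 and -0.0081 in limma. Tfam turned from 0.15 to -0.00086 with library totals, and to -0.00077 and -0.00081 in limma. Wdfy1 turned from -0.03 to 0.014 without WT 164 and 165, and ran from -0.076 to 0.011 with a mouse left out. The cause was not tested. Lower calls were 84.5% and 84.7% of all calls in the limma fits. Me3 could not be fitted with the 5 CPM filter or in limma. No paired analysis was possible because the mouse numbers are not shared between the groups.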
